A study of Mus musculus with 4 samples.

Results

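A list of 40 genes of the interferon response and of antigen presentation was followed through food deprivation in fetal and maternal mouse liver. The genes were taken from a fixed list of names, with no measured value in the rule, and 39 of the 40 were matched on the array, out of 28785 genes in all. The missing one is Psme2, a proteasome activator subunit: the array lists only Psme2b-ps, a near-identical pseudogene, which was not put in its place. The list holds 5 signalling factors, 8 GTPases, 2 chemokines, 9 genes of class I presentation with Psme2 included, 4 genes of class II presentation and 12 genes of the type I interferon response.

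All animals were C57BL/6J mice, an inbred laboratory strain, and the tissue was whole liver. The 4 conditions were control and food-deprived fetuses and control and food-deprived mothers, and controls had free access to chow and water. RNA of 5 to 10 animals was pooled per condition, and each food-deprived pool was hybridised against its control pool on 2 two-colour arrays with the dyes swapped. How long food was withheld, how far gestation had gone and which sex the fetuses had is not given in the sources used here.

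Interferons are secreted alarm proteins. Type II interferon, interferon gamma, comes mainly from T and NK cells and acts on gamma-activated sites, whereas type I interferons act through a complex that holds Stat2 and Irf9 on interferon-stimulated response elements. The induced genes encode GTPases that attack parasite vacuoles, chemokines that draw T cells, the machinery that cuts and displays peptides on MHC molecules, and proteins that block virus growth. In liver they are made by hepatocytes as well as by Kupffer cells, the resident macrophages.

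The start regions of these genes show which of the DNA elements they carry, and 8 are printed because the results below turn on these genes. Sequences are RefSeq's for assembly GRCm38.p6, written 5′ to 3′ on the gene's strand, and end at the base before the annotated start except for Cxcl10, whose stretch begins 228 bases before it. Capitals mark a gamma-activated site (TTCNNNGAA) or a response element (GAAA, any 2 bases and GAAA again, on either strand). The first 3 are GTPase genes on chromosome 11, at chr11:58199446-58199555 (Igtp, plus strand), chr11:58214867-58214976 (Iigp2, now Irgm2, plus strand) and chr11:48992247-48992356 (Tgtp, now Tgtp1, minus strand).
Igtp: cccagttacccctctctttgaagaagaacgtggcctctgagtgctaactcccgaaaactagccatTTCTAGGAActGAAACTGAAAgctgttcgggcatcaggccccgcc
Iigp2: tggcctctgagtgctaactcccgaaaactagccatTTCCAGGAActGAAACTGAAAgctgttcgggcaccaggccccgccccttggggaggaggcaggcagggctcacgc
Tgtp: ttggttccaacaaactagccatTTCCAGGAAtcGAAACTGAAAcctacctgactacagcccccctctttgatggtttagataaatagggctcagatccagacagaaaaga

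In each of these the gamma-activated site starts 11 bases ahead of the response element. Igtp and Iigp2 share a run of 38 identical bases here, and Tgtp shares runs of 14 with Igtp and 20 with Iigp2. The next stretches are those of Irf1 (chr11:53769904-53770013, plus strand), Psmb8 (chr17:34198085-34198194, plus strand), Cxcl10 (chr5:92349038-92349117, minus strand), Isg15 (chr4:156200819-156200928, minus strand) and Rsad2 (chr12:26456453-26456582, minus strand).
Irf1: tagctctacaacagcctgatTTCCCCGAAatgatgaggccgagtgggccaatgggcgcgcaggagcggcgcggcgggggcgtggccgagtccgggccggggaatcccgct
Psmb8: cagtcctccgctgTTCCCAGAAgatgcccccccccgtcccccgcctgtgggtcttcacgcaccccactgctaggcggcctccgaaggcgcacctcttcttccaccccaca
Cxcl10: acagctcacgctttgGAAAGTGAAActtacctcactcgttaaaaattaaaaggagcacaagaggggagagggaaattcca
Isg15: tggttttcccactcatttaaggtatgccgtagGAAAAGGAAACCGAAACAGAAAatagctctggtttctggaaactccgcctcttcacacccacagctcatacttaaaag
Rsad2: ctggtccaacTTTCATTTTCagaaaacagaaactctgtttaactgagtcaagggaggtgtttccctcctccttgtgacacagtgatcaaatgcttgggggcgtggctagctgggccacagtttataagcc

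Irf1 and Psmb8 hold a gamma-activated site and no response element, Cxcl10 and Rsad2 hold the reverse, and Isg15 holds 3 overlapping response elements. Over windows from 250 bases before to 50 after the start, 36 promoters of 32 members were matched. The response element was found in 17 of them (47.2%, against 3.44% of all 32851 promoters) and the gamma-activated site in 9 (25%, against 8.3%). Both were found in 5 (13.9%, against 0.454%), those of Igtp, Iigp2, Tgtp, Oas1a and Bst2, and in Bst2 they overlap. By gene, the response element stood in 6 of 7 GTPase genes, 6 of 9 type I genes and 1 of 2 chemokine genes. It stood in 2 of 7 class I presentation genes, 2 of 5 signalling genes and 0 of 2 class II genes matched. The windows of Psmb9 and Psmb10 held neither element. A match describes the letters only, and no factor's binding was measured.

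Per dye and array, 53.2% to 69.7% of the spots for genes exceeded background clearly, and none was saturated. Each response is the log2 of the food-deprived over the control signal, given as a pair for replicates 1 and 2, which carry opposite dyes. The labels do not settle whether both arrays carry the same pools, so they were counted as 1 biological sample per condition, and no test was made. Summed hepatocyte markers lay between 166000 and 265000 in all pools, and differed between the arrays of control fetuses (166000 and 239000). Summed adult hepatocyte markers went from 208000 and 183000 in control mothers to 134000 and 104000 in food-deprived mothers. In fetuses they went from 58600 and 56000 to 49700 and 57500. Whether the share of hepatocytes was steady was not tested. Across genes the SD per array was 0.15 for fetal and 0.16 for maternal ratios. A gene is said to have risen or fallen where the mean of both arrays reached 2-fold and neither array alone was under 1.5-fold that way. In the fetal pools Xist, made from the inactive X chromosome of female cells, was at least 6.89-fold lower after food deprivation (-3.58 and -2.62). It was above background on both arrays in control fetuses and on 0 in food-deprived fetuses, so these pools may differ in sex as well as in diet. Xist was also 5.06-fold higher in control mothers than in control fetuses. The part of sex in the members' fetal values, maternal minus fetal differences and control levels was not tested.

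In the maternal liver the members were lower after food deprivation almost throughout. Of 37 measured members, 9 fell (Irf1, Gbp3, Igtp, Iigp2, Cxcl9, Psmb8, Psmb9, Psmb10 and Isg15) and none rose, where 1.89% of all 16102 measured genes fell and 1.55% rose. The mean ratio was below 0 for all 37, and 34 were lower on both arrays, against 38.7% of all genes. A decrease of at least 1.5-fold on each array was seen for 18, against 4.22% of all genes, and an increase of that size for none, against 3.18%. The median of the members was -0.63 beside -0.01 for all genes. With median centring of the arrays in place of loess, Cxcl9 alone met the rule, and with the scanner software's processed values 18 members did. The 2 members not measured in the mother are Psme1, with a flagged spot on replicate 2 and -0.67 on replicate 1, and Mx1, which was not well above background.

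**Figure D1:**
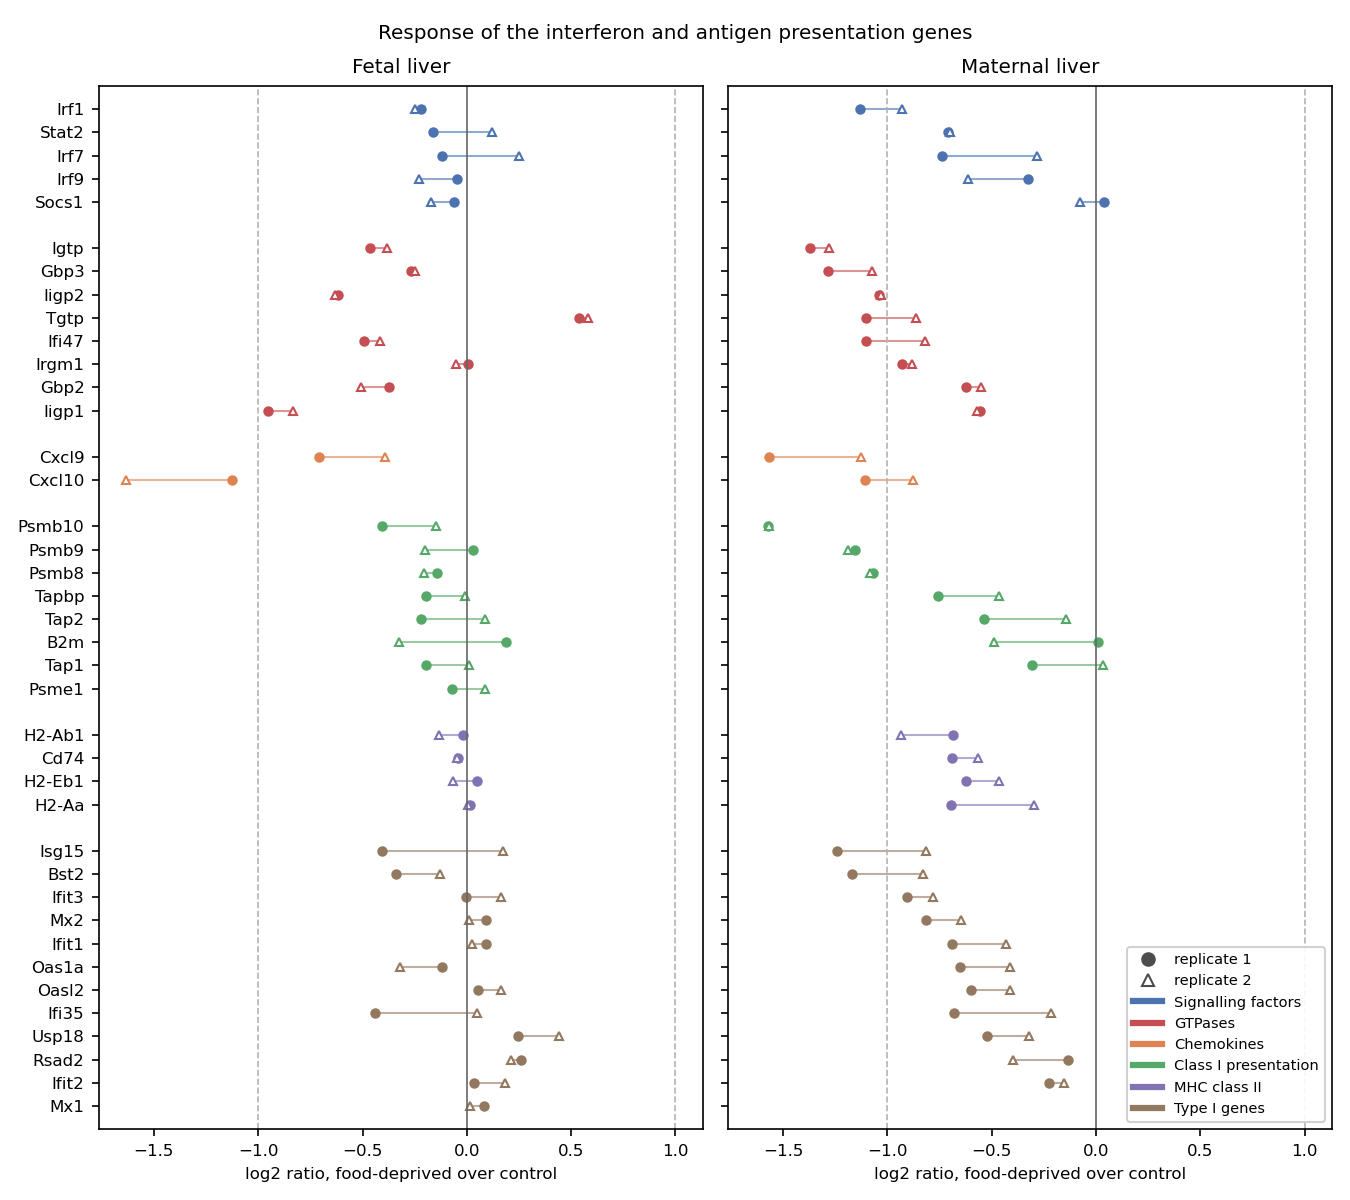
Log2 ratio of food-deprived over control liver (x axis) for each measured member (y axis), in the fetus (left) and the mother (right); circles are replicate 1, triangles replicate 2 with the dyes swapped, and dashed lines mark 2-fold. In the mother every mean lies below 0, from -1.57 for Psmb10 to -0.02 for Socs1, while in the fetus only Cxcl10 passes 2-fold.

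The GTPases are large or immunity-related GTPases that interferon gamma induces to attack vacuoles holding microbes. All 8 were lower on both maternal arrays, with a median of -0.97. Igtp stood at a log2 level of 12.01 and 12.05 in the control pool of the mothers and at 10.64 and 10.77 in the food-deprived pool. It fell 2.51-fold (-1.37 and -1.28).

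Gbp3, a guanylate-binding protein that the array lists under the older name Gbp4, fell 2.26-fold (-1.28 and -1.07). Iigp2 fell 2.05-fold (-1.04 and -1.03). These 3 were the GTPases past the rule, and another 3 came close to it. Tgtp was at -1.10 and -0.86, Ifi47 at -1.10 and -0.82, and Irgm1, which regulates the other GTPases, at -0.93 and -0.88. Tgtp (-1.14) and Ifi47 (-1.07) passed with an offset of 20. Nearest to 0 were Gbp2 (-0.62 and -0.55), which passed with the scanner software's values (-1.03), and Iigp1 (-0.56 and -0.57).

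Of all members, Psmb10 of the immunoproteasome had the lowest maternal ratio, though with the scanner software's processed values Cxcl10 (-2.07), Cxcl9 (-1.97) and Ifit1 (-1.87) were lower than Psmb10 (-1.66). Psmb8, Psmb9 and Psmb10 encode the catalytic subunits that replace those of the standard proteasome under interferon gamma and favour peptides that fit MHC class I. Psmb10 had log2 levels of 11.72 and 12.16 in control mothers and of 10.15 and 10.59 in food-deprived mothers. It fell 2.97-fold, with nearly the same ratio in both dye orientations (-1.57 and -1.57).

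Psmb9 fell 2.25-fold (-1.15 and -1.19) and Psmb8 2.11-fold (-1.07 and -1.08), and a second Psmb8 probe gave -1.04 and -0.99. Their counterparts in the standard proteasome did not share this: Psmb5 was at 0.41 and 0.49 and Psmb7 at 0.07 and 0.20, while Psmb6 was measured on 1 maternal array only (-0.07). With the activator genes Psme3 (0.59 and 0.24) and Psme4, which complete that list, 0 of 4 measured genes passed the rule in either direction, and their median was 0.27.

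The remaining steps of class I presentation changed less. Tapasin, Tapbp, which holds empty class I molecules at the peptide transporter, was at -0.76 and -0.46. The transporter genes Tap1 (-0.31 and 0.04) and Tap2 (-0.54 and -0.15) stood nearer to 0, as did the light chain gene B2m (0.01 and -0.49). For Tap1 and B2m the arrays differed in sign.

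Of 14 measured genes for class I heavy chains and peptide loading, 2 fell in the mother: H2-T10, a non-classical class I gene (-1.15 and -0.90), and Pdia3, a disulfide isomerase of the loading complex (-1.11 and -0.89). The median of that list was -0.12. The classical heavy chains H2-K1 (-0.05 and -0.11) and H2-D1 (-0.11 and 0.33) stayed near 0. Heavy chain genes are close copies of each other, and probes may take up RNA of several.

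MHC class II molecules present peptides taken up from outside and mark antigen-presenting cells. None of the 4 class II members fell in the mother, though all 4 were lower on both arrays. H2-Ab1 was at -0.69 and -0.94, Cd74, the invariant chain, at -0.69 and -0.57, H2-Eb1 at -0.62 and -0.47, and H2-Aa at -0.69 and -0.30. Of 9 other class II genes measured, 0 passed the rule, with a median of -0.18. Ciita, the master activator of class II genes, was at -0.38 and -0.14. It was dim in control mothers (log2 levels of 7.22 and 7.20), and ratios of dim spots are shrunken.

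Both chemokines of the list bind the receptor Cxcr3 on activated T cells. Cxcl9 had log2 levels of 9.57 and 9.33 in control mothers and of 8.00 and 8.20 in food-deprived mothers. It fell 2.54-fold (-1.57 and -1.13) and was the one maternal call that held under every alternative processing tried. Cxcl10 was at -1.11 and -0.88 in the mother, just short of the rule. It passed with an offset of 20 (-1.19), with stained backgrounds reset (-1.24), with the scanner software's processed values (-2.07), in the deposited series table (-2.06) and without replicate 2.

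**Figure D2:**
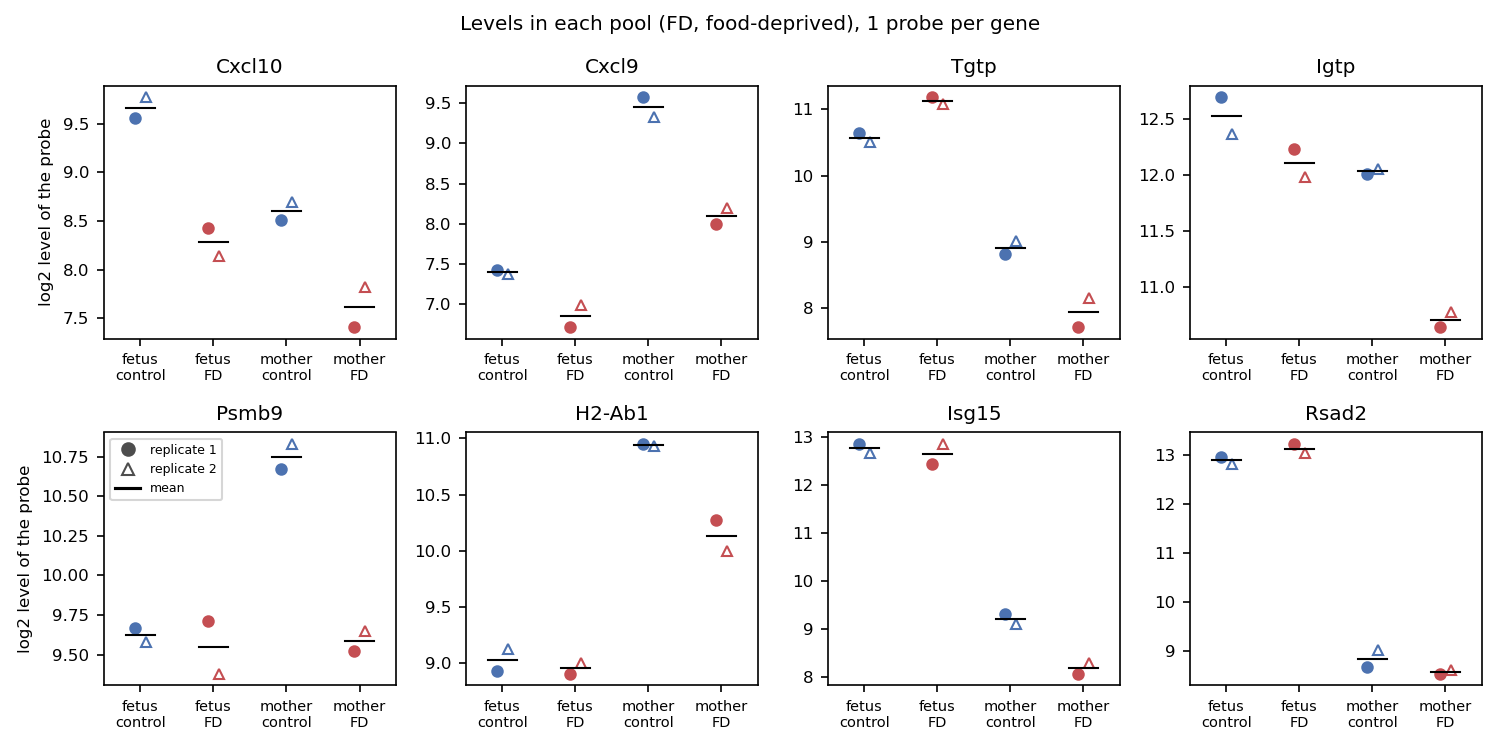
Log2 level of 1 probe per gene (y axis, own scale in each panel) in the 4 pools (x axis; FD, food-deprived); circles are replicate 1, triangles replicate 2, lines the means. Cxcl10 is lower in the food-deprived pool of both livers, Tgtp is higher in the food-deprived fetus and lower in the food-deprived mother, and Isg15 and Rsad2 are far higher in the fetus than in the mother.

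Among the type I genes, 11 of 11 measured were lower on both maternal arrays, with a median of -0.53. Isg15, a ubiquitin-like protein attached to other proteins during virus infection, fell 2.04-fold (-1.24 and -0.82) but did not pass without replicate 1. Bst2, tetherin, which holds budding viruses at the cell surface, was at -1.17 and -0.83, at the edge of the rule. Next came Ifit3, which binds viral RNA (-0.90 and -0.78), and Mx2, an antiviral dynamin-like GTPase (-0.81 and -0.65).

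The other type I members ranged in mean from -0.56 for Ifit1 to -0.19 for Ifit2. This order depends on the processing: with the scanner software's processed values Ifit1 (-1.87), Mx2 (-1.41), Ifit2 (-1.13), Oas1a (-1.05) and Ifit3 (-1.004) passed the rule too. Between Ifit1 and Ifit2 lay Oas1a (-0.65 and -0.41) and Oasl2 (-0.60 and -0.41), of the family that senses double-stranded RNA, Ifi35 (-0.68 and -0.21), Usp18 (-0.52 and -0.32) and Rsad2 (-0.13 and -0.40). Usp18 removes Isg15 from its targets, and Rsad2, viperin, is an antiviral enzyme.

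Of the signalling factors, the transcription factor gene Irf1 fell 2.04-fold in the mother, from log2 levels of 11.84 and 11.79 to 10.71 and 10.86 (-1.13 and -0.93). A second, far dimmer Irf1 probe gave -0.46 and -0.14, and with the mean over both probes Irf1 did not pass the rule (-0.66), nor did it without replicate 1 (-0.93). Stat2 was at -0.71 and -0.70, Irf7, which amplifies type I interferon, at -0.74 and -0.29, and Irf9 at -0.33 and -0.61. Socs1, the feedback inhibitor of interferon receptors, stood at 0.04 and -0.08.

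Receptors and kinases upstream of these factors did not pass the rule. In the list of interferon receptors, kinases and STATs 0 of 13 passed in the mother, with a median of 0.02. On both arrays 4 were lower and 4 higher, and the feedback inhibitor gene Socs3 lay farthest from 0 (0.78 and 0.70). The gene Ifng itself was not measured in the mother, being above background in the control pool on 1 array only. In the list of other IRFs and virus sensors 0 of 13 passed the rule, with a median of -0.14, but 7 were lower on both arrays and 3 higher. The virus sensor gene Ifih1 was lowest (-0.89 and -0.81), and Ddx58 (-0.55 and -0.38) and Dhx58 (-0.46 and -0.47) were lower too.

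Further interferon-induced genes outside the list fell in part. Of 8 other guanylate-binding proteins and GTPases, 1 fell, Gbp6 (-1.93 and -1.02), and the median was -0.30. Of 26 other type I genes, 4 fell and 1 rose, with a median of -0.27. Those that fell were Ifitm3 (-0.97 and -1.13), which blocks virus entry, Zbp1 (-1.64 and -1.11), a sensor of nucleic acid, Uba7 (-1.34 and -1.13), the enzyme that activates Isg15, and Rtp4 (-1.54 and -1.004). The one that rose was Tor3a (1.60 and 1.26).

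Markers of macrophages and leukocytes were lower in the food-deprived mothers too. Of 19 Kupffer cell and macrophage markers, 4 fell (Adgre1, Cd5l, Aif1 and Folr2), 17 were lower on both arrays, and the median was -0.56. Their summed level was 46300 and 45400 in control mothers and 29300 and 29800 in food-deprived mothers. All 9 general leukocyte markers were lower on both arrays, with none past the rule and a median of -0.40, and their summed level went from 5560 and 6030 to 4410 and 4410. In bulk liver, fewer cells of a type and less RNA per cell cannot be told apart, and the part of these cells in the members' values was not tested.

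Of the other cell types, medians in the mother were -0.07 over 4 B cell markers, -0.06 over 4 dendritic cell markers, -0.03 over 10 T and NK cell markers and -0.01 over 5 granulocyte and monocyte markers, with 0 past the rule in each. Cd8a and Ncr1 were not well above background in the mother. Endothelial markers had a median of -0.17, with 1 of 11 higher (Lyve1), and 4 erythroid markers -0.08. Of 6 hepatocyte markers 1 fell (Ttr; median 0.28), of 6 adult hepatocyte markers 3 fell (Cyp7a1, Cyp2f2 and Rgn; median -1.19), and of 4 fetal hepatocyte markers 0 did (median -0.04).

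**Figure D3:**
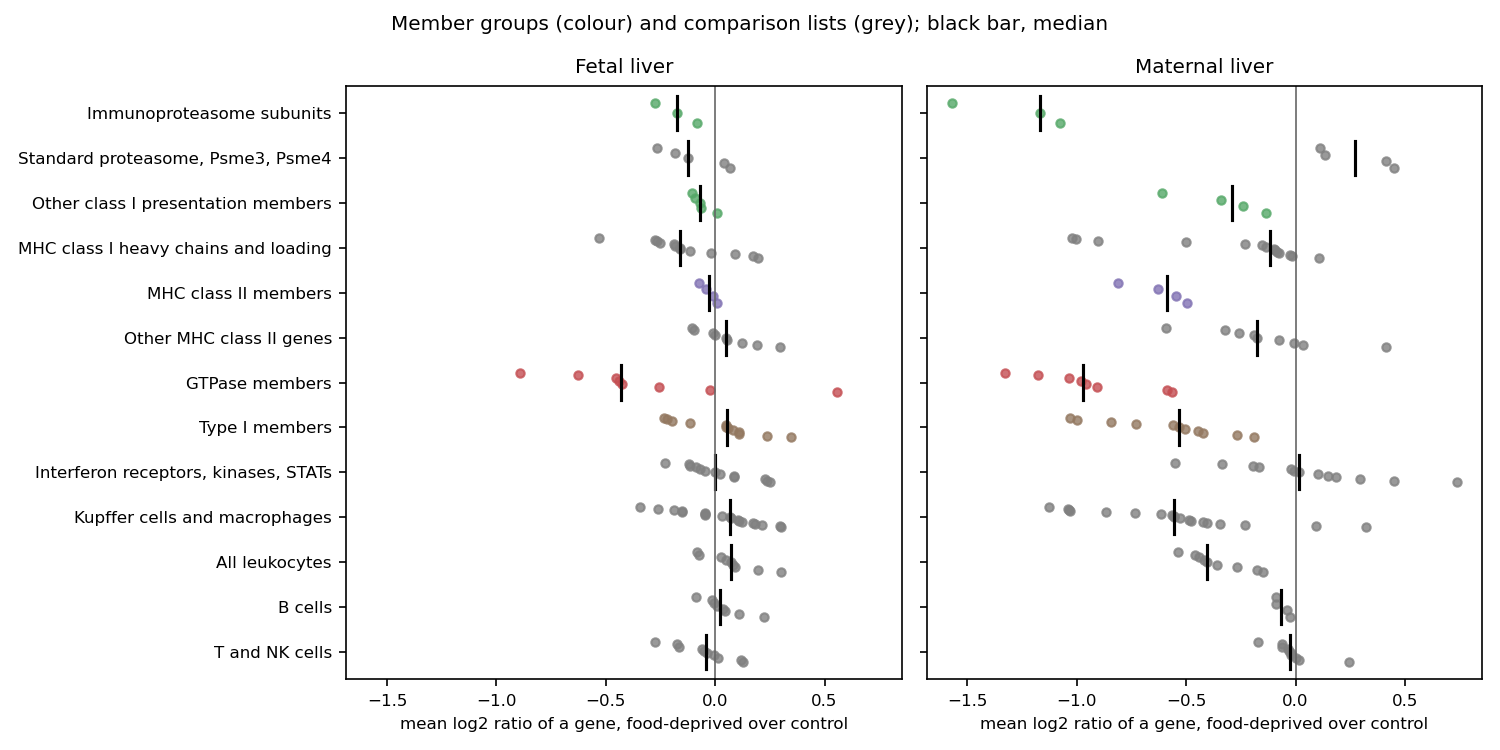
Mean log2 ratio of food-deprived over control (x axis) for each measured gene (dots) of member groups (colour) and of comparison lists (grey), with black bars for medians, in the fetus (left) and the mother (right). In the mother the 3 immunoproteasome subunits lie between -1.57 and -1.08 and the standard proteasome and activator genes between 0.11 and 0.45. Maternal medians are -0.97 for the GTPases, -0.53 for the type I members and -0.56 for Kupffer cell and macrophage markers. The type I median depends on the processing: with the scanner software's processed values the middle type I member was Ifit3 (-1.004). The part of these cells in the members' values was not tested.

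In the fetal liver only 1 of 39 measured members passed the rule. Cxcl10 had log2 levels of 9.56 and 9.77 in control fetuses and of 8.43 and 8.14 in food-deprived fetuses. It fell 2.60-fold (-1.13 and -1.63) and did not pass with median centring (mean -1.20). Across all 18036 genes measured in the fetus, 0.266% fell and 0.471% rose. Decreases of at least 1.5-fold on each array were seen for 3 members, against 0.649% of all genes, and such increases for none, against 1.26%. The fetal member median was -0.08 beside 0.00 for all genes, and it turned to 0.06 with median centring in place of loess, which moved the median of all genes to 0.10.

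Within the fetus the groups differed in their values. The GTPases had a fetal median of -0.43, with 6 of 8 lower on both arrays, against 30.9% of all genes, and 2 at least 1.5-fold lower on each. Those 2 were Iigp1 (-0.96 and -0.83) and Iigp2 (-0.62 and -0.63). Ifi47 (-0.49 and -0.42), Gbp2 (-0.38 and -0.51), Igtp (-0.46 and -0.38) and Gbp3 (-0.27 and -0.25) followed, and Irgm1 was near 0 (0.00 and -0.05).

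Tgtp stood apart from the other GTPases in the fetus. Its log2 level was 10.64 and 10.50 in control fetuses and 11.18 and 11.08 in food-deprived fetuses, higher on both arrays (0.54 and 0.58) but short of the rule. A second, dim Tgtp probe stayed near 0 in the fetus (0.12 and 0.00) and in the mother (0.10 and 0.04), so the probes disagree. Tgtp1 has a near-identical copy, Tgtp2, and the probes may take up RNA of both.

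The second chemokine, Cxcl9, was at -0.71 and -0.39 in the fetus, and it passed the rule there with the scanner software's processed values (-1.41). Immunoproteasome genes were near 0 in the fetus: Psmb8 at -0.15 and -0.21, Psmb9 at 0.03 and -0.20, and Psmb10 at -0.41 and -0.15. Means of the class I presentation genes ranged from -0.28 for Psmb10 to 0.01 for Psme1, a proteasome activator subunit (-0.07 and 0.09), with a median of -0.09. Class II means ranged from -0.075 for H2-Ab1 to 0.01 for H2-Aa, with a median of -0.03, and signalling factors from -0.24 for Irf1 to 0.06 for Irf7, with a median of -0.12. Each of these 3 medians turned positive with median centring. H2-Aa was dim in control fetuses (log2 levels of 6.91 and 6.89), and ratios of dim spots are shrunken.

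The type I genes had a fetal median of 0.06, with 4 of 12 means below 0 and a range from -0.23 for Bst2 to 0.35 for Usp18. Of 12, 7 were higher on both fetal arrays, against 32.0% of all genes, and 2 lower. The highest were Usp18 (0.25 and 0.44) and Rsad2 (0.26 and 0.21), whose other probes gave 0.30 and 0.37, and 0.21 and 0.36. Isg15 differed in sign between the arrays (-0.41 and 0.17), and Mx1, an antiviral gene close to background, was at 0.08 and 0.02. None of the pathway lists held a gene that passed the rule in the fetus. The fetal list medians were 0.00 for receptors, kinases and STATs, 0.01 for IRFs and sensors, -0.04 for other GTPases, 0.02 for other type I genes, -0.16 for heavy chains and loading, -0.13 for standard proteasome and activator genes and 0.05 for other class II genes.

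In the fetus the Kupffer cell and macrophage markers (median 0.07) and the leukocyte markers (median 0.07) held no gene past the rule. Erythroid markers had a median of -0.26, with 6 of 8 lower on both arrays. Their summed level was 138000 and 140000 in control fetuses and 134000 and 104000 in food-deprived fetuses, and the part of this in the fetal values was not tested.

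Maternal and fetal responses were compared directly by subtracting the fetal from the maternal log2 ratio on arrays of equal dye orientation. Of 37 members measured in both, 3 responded at least 2-fold more negatively in the mother, against 1.76% of 15561 genes in that direction, and none the other way, against 1.23%. These were Tgtp (-1.64 and -1.44), Psmb10 (-1.17 and -1.42) and Psmb9 (-1.18 and -0.99). With the mean over both of its probes Tgtp did not pass (-0.77), and Psmb9 did not pass without replicate 1 (-0.99).

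The difference was below 0 on both pairs of arrays for 33 of the 37, against 41.9% of all genes, and its median was -0.58 beside -0.02 for all genes. It was at least 1.5-fold on each pair for 15 members, against 4.82% of all genes, and as large the other way for none, against 2.83%. The 3 members with the opposite sign on both pairs, against 35.1% of all genes, were Cxcl10 (0.02 and 0.76), Iigp1 (0.40 and 0.26) and Socs1 (0.10 and 0.10). With the scanner software's processed values the mean difference was below 0 for Cxcl10 (-0.36) and Socs1 (-0.02) but not for Iigp1 (0.345). Group medians of the difference were -0.69 for the GTPases, -0.62 for type I genes, -0.58 for signalling, -0.56 for class II, -0.51 for class I presentation and -0.20 for the 2 chemokines. The order of GTPases and type I genes was reversed with the scanner software's processed values. There the middle type I gene was Oasl2 (-1.01), and the middle GTPases were Irgm1 (-0.97) and Ifi47 (-0.78). With median centring 10 members passed, and with the scanner software's processed values 11.

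The control pools show the members' levels in fed animals. Levels were set in the same dye between arrays, mother minus fetus. Of 38 members measured, 9 were higher in the mother and 6 lower, where 9.06% of all 18077 genes were higher and 10.3% lower. By direction alone, 14 were higher in the mother in both dyes and 16 lower, against 45.7% and 42.9% of all genes, and at 1.5-fold in each dye 10 were higher and 9 lower, against 14.8% and 15.9%. The split at 2-fold was 7 higher and 10 lower with median centring, and 11 and 10 with the scanner software's values, which moved the median of all genes to 0.15. The members' median was -0.02, with the groups on opposite sides of it.

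Type I genes gave the widest gaps. Rsad2 stood at a log2 level of 12.97 and 12.83 in control fetuses and of 8.68 and 9.03 in control mothers, 16.5-fold lower in the mother (-4.29 and -3.80), and its other probes gave means of -3.31 and -3.09. Isg15 stood at 12.86 and 12.68 in fetuses and 9.32 and 9.11 in mothers, 11.7-fold lower (-3.54 and -3.57). Usp18 was 2.79-fold lower in the mother (-1.47 and -1.49) and Oasl2 2.23-fold lower (-1.09 and -1.23).

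Not all type I genes shared this order. Bst2 was 2.71-fold higher in the mother (1.63 and 1.25), and the antiviral genes Ifit1 (-0.62 and 0.15), Ifit3 (-0.20 and -0.11) and Mx2 (0.50 and 0.22) lay near equal levels. Short of the rule too were Ifit2 (-0.97 and -0.90), Oas1a (-0.29 and -1.03), Mx1 (-0.34 and -0.39) and Ifi35 (-0.07 and -0.36), though Ifit2 (-1.14) and Oas1a (-1.02) passed with median centring. With the scanner software's values Mx1 (-2.0), Ifit2 (-1.70) and Oas1a (-1.08) passed. Cmpk2, a nucleotide kinase gene next to Rsad2 on chromosome 12, was lower in the mother as well (-1.64 and -1.82), and so was Uba7 (-2.54 and -2.53).

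Class II genes were all higher in the mother. Cd74 stood at 7.96 and 8.07 in control fetuses and 10.49 and 10.30 in control mothers, a 5.20-fold difference (2.53 and 2.22). H2-Ab1 was 3.76-fold higher (2.02 and 1.80), H2-Eb1 3.0-fold (1.72 and 1.45) and H2-Aa 2.68-fold (1.47 and 1.37). With the scanner software's processed values the mean differences were larger: Cd74 3.08, H2-Aa 3.05, H2-Eb1 2.63 and H2-Ab1 2.19. None of the 9 other class II genes measured passed the rule at this comparison, with a median of 0.28. H2-DMb1 came closest, higher in the mother (1.02 and 0.84). Several of the 9 were dim in control fetuses, among them Rfx5 (log2 levels of 6.64 and 6.63), H2-DMb2 (6.82 and 6.79) and Ciita (6.82 and 6.91). Ratios of dim spots are shrunken, so the contrast with the 4 members is limited by this.

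Class I presentation was higher in the mother by a median of 0.67. B2m was 2.31-fold higher (1.17 and 1.25), Psmb9 2.18-fold (0.997 and 1.25) and Tap2 2.12-fold (0.995 and 1.17). B2m did not pass with the mean over its probes (0.973). Both Psmb9 and Tap2 lost the call with median centring (0.803 each) and without replicate 2 (0.997 and 0.995). Of 13 heavy chain and loading genes measured, 8 were higher in the mother, H2-D1 among them (1.97 and 1.61), and the list's median was 1.102.

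The chemokines went in opposite directions at control level. Cxcl9 was 4.13-fold higher in the mother (2.14 and 1.95) and Cxcl10 2.08-fold lower (-1.05 and -1.07). Of the GTPases only Tgtp passed the rule, 3.16-fold lower in the mother (-1.83 and -1.49), and it did not pass with the mean over both probes (-0.78). The other 7 had means from -0.86 for Ifi47 to 0.77 for Iigp1, and Ifi47 passed with median centring (-1.21). Iigp1 passed with the scanner software's values, higher in the mother (1.44). None of the signalling factors passed, and Socs1 came closest (-1.01 and -0.94), passing with median centring (-1.22), an offset of 20 (-1.15) and the scanner software's values (-1.75).

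**Figure D4:**
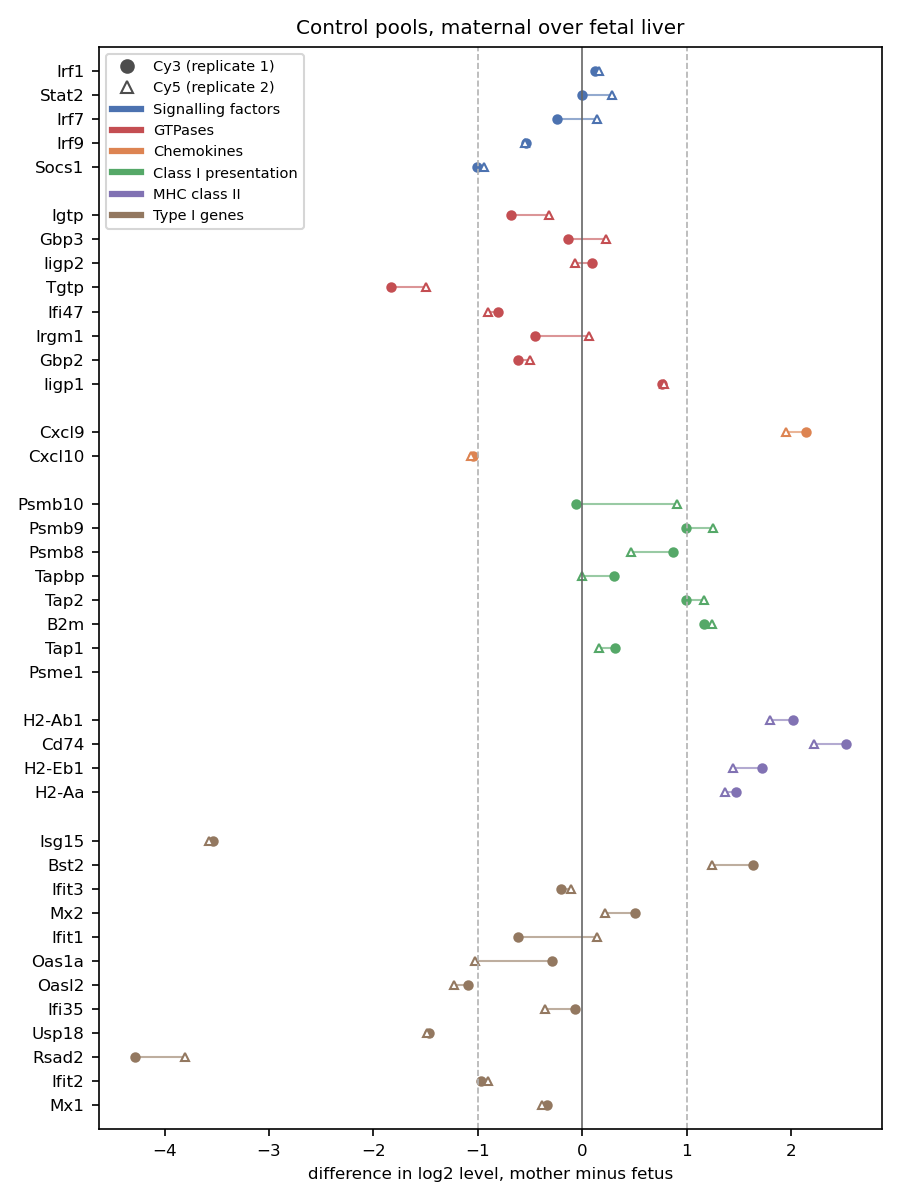
Difference in log2 level between control mothers and control fetuses (x axis; mother minus fetus) for each measured member (y axis), in Cy3 (circles) and Cy5 (triangles), with dashed lines at 2-fold. Class II genes lie to the right, from 1.42 for H2-Aa to 2.38 for Cd74, and Rsad2 (-4.04) and Isg15 (-3.55) lie farthest to the left.

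Cell types differed between the control livers as well. In the mother 8 of 9 leukocyte markers were lower than in the fetus (median -1.54), as were 8 of 9 granulocyte and monocyte markers (median -5.55), 8 of 8 erythroid markers (median -3.93) and 5 of 5 fetal hepatocyte markers (median -7.26). Of 19 Kupffer cell and macrophage markers 4 were lower and 3 higher (median -0.36). Their part in the members' levels was not tested.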

How the data were processed

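Pooled liver RNA of 4 conditions was measured on 4 two-colour arrays of 1 slide. The deposited scanner files give, per the file headers, spot and local background intensity in both dyes, and a log10 ratio of processed signals, from which the software had taken background and dye effects. That software is Agilent Feature Extraction, version 9.5.1.1 in the headers but 9.5.3.1 per the submitters' processing notes. The deposited series table holds ratios that matched red over green processed signal (r of at least 0.9999 on the log scale), signed by array (column medians -0.92, 0.94, -0.88 and 0.88); what the sign stands for is unknown.

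In R 4.3.3 with limma 3.58.1, intensities were corrected by normexp (offset 50), normalised by loess within arrays (control spots weighted 0), then turned to log2 food-deprived over control, the direction of the deposited labels. Offset and normexp shrink ratios of dim spots. Levels came from Aquantile normalisation on top. Outlier spots were left out (215 to 257 per array) and spots of a probe averaged. The brightest probe unflagged on all arrays stood for a gene. A gene was measured when control or food-deprived signal was well above background on both arrays. Of 57 member probes, 50 were named through their accession in RefSeq (GRCm38.p6). The calling steps were tested on simulated data. The number of arrays limits the precision.

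The members and the pathway and marker lists were chosen with earlier results of these data known. Values are printed for members past the rule in any comparison and for those on which a contrast of groups turns; of pathway lists, genes past the rule are named. Other genes are named for their role, after their values were seen. Alternatives covered the offset, stained backgrounds, median centring, processed signals, the series table, averaging probes, filters and each array left out.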

Additional observations from a re-analysis of the deposited data

Results flagged for a closer look

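For 8 members both fetal arrays lay above 0 and both maternal arrays below 0, and this difference was not tested. Of all genes measured, 32.0% were higher on both fetal arrays and 38.7% lower on both maternal arrays. The share of all genes with both was not counted, so whether 8 members are more than usual is unknown. In the fetus 5 of the 8 means were smaller than the SD per array of 0.15. The widest gap between maternal and fetal log2 response was that of Tgtp (-1.54), from 0.54 and 0.58 in the fetus to -1.10 and -0.86 in the mother. Type I genes made up 6 of the others, with gaps of -0.78 for Mx2, -0.77 for Usp18, -0.62 for Ifit1, -0.61 for Oasl2, -0.50 for Rsad2 and -0.30 for Ifit2. The last was H2-Aa (-0.50), whose fetal values were 0.01 and 0.01. Of these, Usp18 and Rsad2 had fetal means of 0.35 and 0.24. All 8 means stayed above 0 in the fetus with median centring, with the scanner software's values and with an offset of 20. With probes averaged the fetal mean of H2-Aa was 0, its second probe being at 0.04 and -0.06.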

How the results depend on the processing

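No paired analysis was possible because the replicate numbers mark the dye orientation and no test was made. No called member changed sign under any alternative. With an offset of 20 the maternal median was -0.77, and 5 members were called in the maternal minus fetal difference (median -0.70). With stained backgrounds reset the maternal median was -0.74 and 5 differences were called. Median centring called 0 fetal members (median 0.059), 1 maternal member (Cxcl9; median -0.71) and 10 differences (median -0.76), with a control level median of -0.30; maternal means of the other 8 calls stayed between -1.64 and -1.004, and all genes moved to -0.11 in the difference. The scanner software's processed values called 2 fetal members, 18 maternal members (median -0.997) and 11 differences (median -0.78). The series table called 2 fetal and 17 maternal members (median -1.0). The cause of these shifts was not tested. Leaving out 1 array gave 7 to 13 maternal calls with medians from -0.71 to -0.61; without replicate 1, Irf1 (-0.93) and Isg15 (-0.82) were not called, and without replicate 2 Bst2, Cxcl10, Ifi47 and Tgtp were. It gave 1 fetal call each time (medians -0.12 and -0.05), 2 to 4 differences (medians -0.65 to -0.53) and 14 to 16 control level calls (medians -0.10 to 0.11). Neither the filter at 10 SD nor no filter changed a call. Averaging probes ended the calls of Irf1, of Tgtp and of B2m at control level (0.97). Since pools were counted as 1 sample per condition, the spread between animals is unknown, and dim genes such as Mx1 have shrunken ratios.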
